A study of Mus musculus with 8 samples.

Results

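Collagen hydrolysate is absorbed partly as small peptides that hold proline or hydroxyproline, and the 9 genes described here encode the proteins that carry such peptides across membranes, cut them and make or break down proline. They were chosen by these known functions, though with earlier results of these data known: *Slc15a1*, *Slc15a2*, *Slc15a3*, *Slc15a4*, *Pepd*, *Prodh*, *Pycr1*, *Aldh18a1* and *Aldh4a1*. Of the 9, 8 had a probe set annotated to that symbol alone, out of 18193 genes in all, and together they held 15 probe sets. *Pycr1*, which encodes the enzyme that makes proline from pyrroline-5-carboxylate, was not analysed here because no probe set carried its name in the annotation used. For a gene with several, the probe set of highest mean value was taken. Of the 8 genes, 7 lay above the filter that left out the lowest 30% of genes by mean level, and *Slc15a2* lay below it.

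Expression was measured on 8 oligonucleotide arrays of whole dorsal skin from female mice of the hairless strain Hos:HR-1. In the collagen group, 4 mice had eaten AIN-93G, a purified rodent diet, mixed with fish scale collagen hydrolysate at 2 g per 100 g for 12 weeks, and in the control group 4 mice had eaten AIN-93G alone for the same time. All were 9 weeks old when feeding began and 21 weeks old when skin was taken, and the arrays cover 4 of the 8 mice on each diet. The comparison asks whether the skin's expression of these genes differed between the diets.

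The peptide carriers fall into surface and lysosomal forms. PEPT1, encoded by *Slc15a1*, is known for the uptake of dietary peptides in the small intestine, and PEPT2, encoded by *Slc15a2*, for the recovery of peptides in the kidney. The products of *Slc15a3* and *Slc15a4* move peptides and histidine out of lysosomes and are best known from cells of the immune system. Prolidase, encoded by *Pepd*, splits dipeptides that end in proline or hydroxyproline, and people who lack it develop skin ulcers. Proline is oxidised in mitochondria by the products of *Prodh* and *Aldh4a1*, which turn it through pyrroline-5-carboxylate into glutamate. The product of *Aldh18a1* runs the opposite way, from glutamate to pyrroline-5-carboxylate, and that of *Pycr1* completes proline.

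Log2 values as deposited ran from 5.34 to 14.27 and hardly differed from array to array: the SD across the 8 arrays had a median of 8.66e-06 over all probe sets. How they were summarized and normalized is not known, so differences between them cannot be read as fold changes of RNA, and a level of one probe set says nothing about that of another. The value of an array is therefore given as its deviation from the 8-array mean of the gene, in millionths of a log2 unit. A difference between the diets is collagen minus control, divided by the pooled SD within the groups. Of the markers of skin, 8 of 8 for keratinocytes and 7 of 7 for dermal fibroblasts lay above the filter. The filter keeps 12735 of 18193 genes whatever the tissue, so these counts cannot test whether the tissue was as labelled. Control replicate 4 and collagen replicate 1 stood apart in skeletal muscle markers, with a mean deviation of -1.36 SD in each against 0.22 to 0.89 SD in the other arrays. Because skin was taken whole, fewer cells of a type and less RNA per cell cannot be told apart.

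None of the 7 genes tested passed limma's moderated test for a difference between the diets. Each had overlapping groups and an adjusted p of 0.999, and 0 of 7 had an unadjusted p below 0.05. Over all 12735 genes tested, 0% passed at an adjusted p below 0.05, 5.36% had an unadjusted p below 0.05 and 3.31% had groups that did not overlap. Of the 7 genes, 5 had a higher and 2 a lower mean on the collagen diet, at a median of 0.70 SD, against 45.5% higher, 54.5% lower and a median of -0.08 SD over all genes tested. This split moved with the scaling. After quantile normalization 3 of the 7 were higher, against 34.3% of all genes. Of the 3, *Pepd* stood at 1.28e-12 SD, a tie but for rounding. Any value above 0 was counted as higher, so such ties can enter the share of all genes too. After each array was centred on its median 2 of the 7 were higher, where 13.5% of all genes were. The values of each array are plotted for the 8 measured genes.

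**Figure D1:**
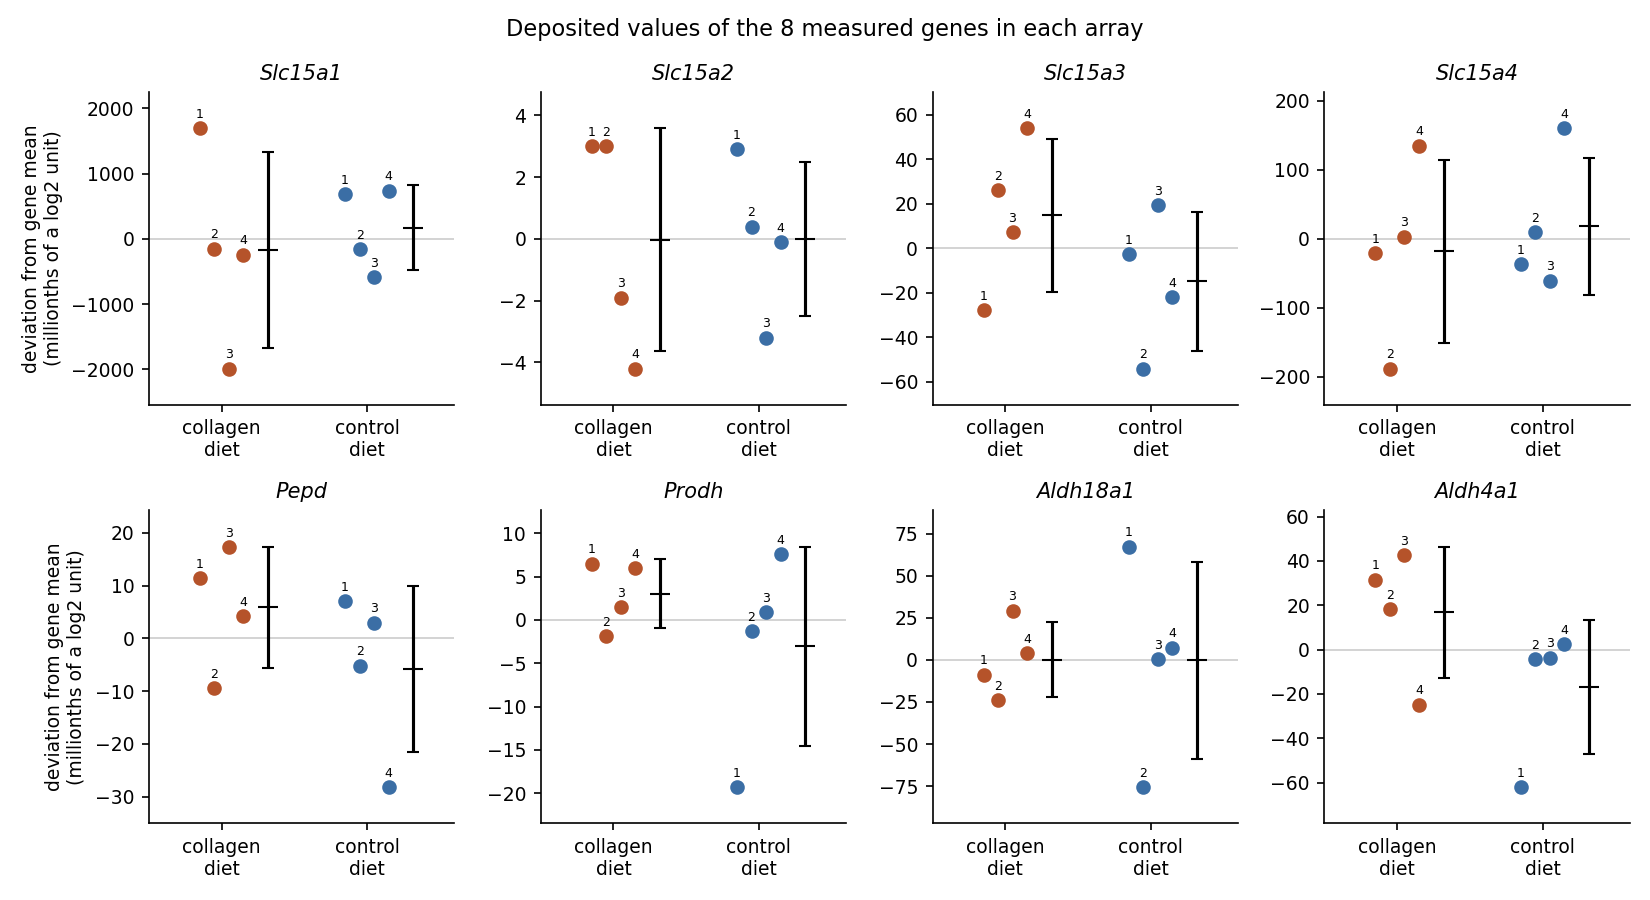
Deposited values of the 8 measured genes, as deviations from the gene's mean over 8 arrays in millionths of a log2 unit (vertical axis, its own range in each panel). Points are single arrays, numbered by replicate, with the collagen diet left and the control diet right, and the bar beside them is the mean ± SD (n = 4). In every panel the 2 diets overlap. *Slc15a1* spans from -1987.2 to 1697.4, while *Slc15a2* spans from -4.2 to 3.0.

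*Slc15a1*, the intestinal peptide carrier PEPT1, varied between arrays far more than most probe sets and had groups that overlapped widely. Its probe set (1419343_at) had a mean log2 value of 8.12 and an SD over the 8 arrays of 0.00109, and 98.3% of 45037 probe sets had an SD as small or smaller. The deviations were 1697.4, -148.7, -1987.2 and -240.1 millionths in collagen replicates 1 to 4, against 687.0, -157.9, -590.0 and 739.6 millionths in control replicates 1 to 4. The highest and the lowest of all 8 arrays were both on the collagen diet, and the 4 control arrays lay between them. The difference was -0.29 SD with a 95% interval from -1.90 to 1.32 SD (limma adjusted p = 0.999), and it was 0.31 SD without collagen replicate 3.

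The arrays high in *Slc15a1* included both that were low in skeletal muscle markers. Collagen replicate 1 and control replicate 4, at -1.36 SD for the muscle list, had *Slc15a1* deviations of 1697.4 and 739.6 millionths, and collagen replicate 3, which had the highest muscle value at 0.89 SD, had the lowest *Slc15a1* value. Control replicate 1 was nearly as high in *Slc15a1* as control replicate 4, with a muscle value of 0.26 SD. All 14 muscle markers lay above the filter, with summed log2 levels from 144.5 to 148.4 on the collagen diet and from 144.7 to 147.4 on the control diet. Without these 2 arrays the difference in *Slc15a1* was -0.89 SD (limma adjusted p = 1.00). Among the other measured genes, collagen replicate 1 and control replicate 4 were both above the mean in *Prodh* and *Aldh4a1* and both below it in *Slc15a3*. They lay on opposite sides of it in *Slc15a2*, *Slc15a4*, *Pepd* and *Aldh18a1*. The part of muscle tissue in the *Slc15a1* values was not tested.

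*Slc15a2*, which encodes PEPT2, lay below the filter on low values and gave probe sets that did not move alike. Its representative probe set (1447808_s_at) deviated by 3.0, 3.0, -1.9 and -4.2 millionths in collagen replicates 1 to 4, against 2.9, 0.4, -3.2 and -0.1 millionths in control replicates 1 to 4. In a fit of all 18193 genes without the filter the difference was -0.01 SD, with an interval from -1.67 to 1.64 SD (limma adjusted p = 1.00). A second probe set (1417600_at) deviated by -10.8, -68.6, 35.4 and -65.7 millionths on the collagen diet, against -1.9, 75.9, 55.6 and -19.9 millionths on the control diet. Of its collagen arrays 2 lay below every control array, and the difference was -1.15 SD (adjusted p = 0.992 in limma's fit of 31526 probe sets). The fit of probe sets had its own cut, the lowest 30% of probe sets by mean, which 1447808_s_at passed. The remaining probe set, 1424730_a_at, lay below that cut, differed by 0.21 SD and was not tested.

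Of the lysosomal carriers, *Slc15a3* had a higher mean on the collagen diet and *Slc15a4* a lower one, and neither passed the test. *Slc15a3* (1420697_at) deviated by -27.8, 26.0, 7.2 and 54.0 millionths in collagen replicates 1 to 4, against -2.8, -54.1, 19.4 and -22.0 millionths in control replicates 1 to 4. Collagen replicates 2 and 4 lay above all control arrays, and collagen replicate 1 lay below all but control replicate 2. The difference was 0.91 SD with an interval from -0.71 to 2.52 SD (limma adjusted p = 0.999), it turned to -0.08 SD after quantile normalization, and it was 1.55 SD without collagen replicate 1. *Slc15a4* (1448385_at) deviated by -21.2, -188.0, 2.8 and 134.4 millionths on the collagen diet, against -36.7, 9.6, -61.0 and 160.1 millionths on the control diet. Replicate 4 was the highest array on either diet, and collagen replicate 2 was the lowest of all. The *Slc15a4* difference of -0.31 SD (interval from -1.92 to 1.31 SD, limma adjusted p = 0.999) turned to 0.22 SD without collagen replicate 2 and to 0.11 SD without control replicate 4. Its other probe set, 1441925_at, lay below the filter and differed by 0.44 SD.

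Markers of macrophages and dendritic cells, in which *Slc15a3* and *Slc15a4* are known to work, lay on both sides of 0. Of 12 markers, all above the filter, 8 were higher and 4 lower, against 45.5% higher and 54.5% lower of all genes tested. The median was 0.22 SD, and summed log2 levels ran from 117.397 to 117.406 on the collagen diet and from 117.399 to 117.402 on the control diet. *Lyz2*, lysozyme 2, stood at 2.15 SD and *Cd163*, a scavenger receptor, at -1.62 SD, with limma adjusted p of 0.820 and 0.930. The list's mean deviation was -0.56, 0.49, -0.24 and 0.53 SD in collagen replicates 1 to 4, against -0.31, -0.05, 0.59 and -0.45 SD in control replicates 1 to 4. The 3 arrays highest in the list were also the 3 highest in *Slc15a3*, as the plot of both shows.

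Across the 8 arrays the macrophage list and *Slc15a3* gave Pearson's r = 0.71 (exact permutation p = 0.0506, adjusted p = 0.101 over 2 relations) and Spearman's rho = 0.69 (exact permutation p = 0.0694, adjusted p = 0.139). Without control replicate 3 and collagen replicate 4, the 2 arrays farthest from the list's median, r was 0.50. For *Slc15a4* r was -0.29 (exact permutation p = 0.471, adjusted p = 0.471) and rho -0.29 (exact permutation p = 0.501, adjusted p = 0.501), and r was -0.75 without the same 2 arrays. Neither relation passed, and each diet alone holds too few arrays for a value of its own.

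**Figure D2:**
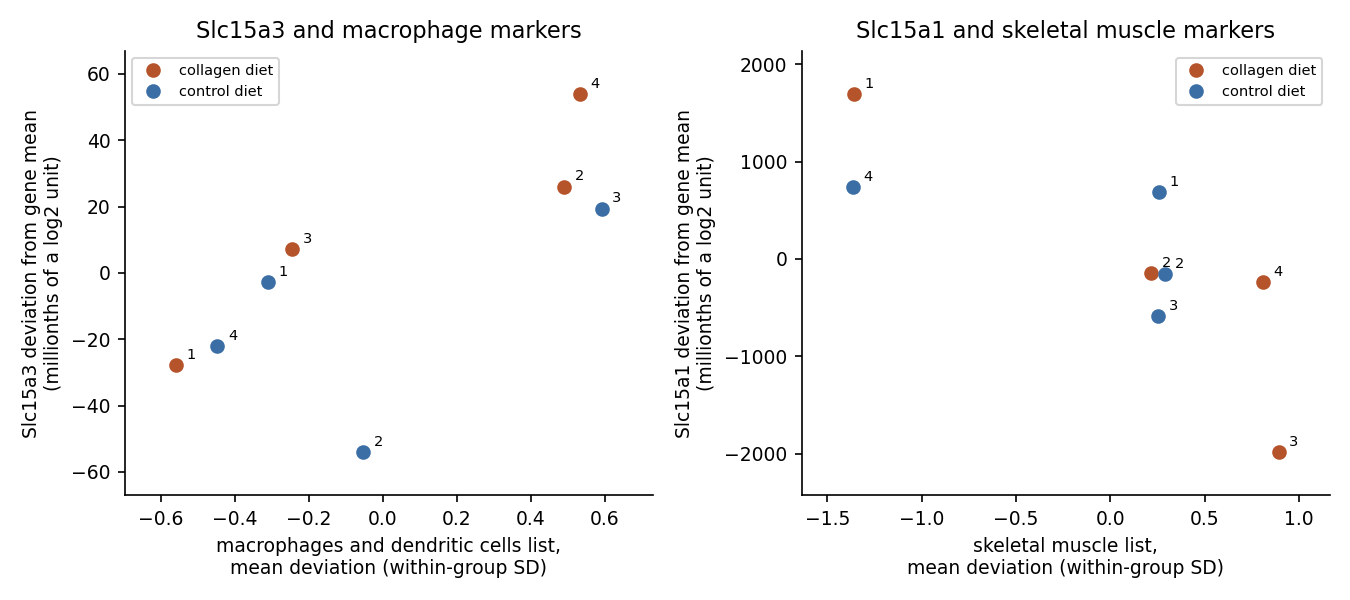
Left, *Slc15a3* against the mean deviation of 12 macrophage and dendritic cell markers. Right, *Slc15a1* against that of 14 skeletal muscle markers. Horizontal axes are in within-group SD and vertical axes in millionths of a log2 unit, and each point is an array, numbered by replicate and coloured by diet. *Slc15a3* was highest in the 3 arrays highest in macrophage markers, and the 2 arrays at -1.36 SD in muscle markers had *Slc15a1* values of 1697.4 and 739.6.

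*Pepd*, which encodes prolidase, had a higher mean on the collagen diet in values that overlapped. Its probe set (1416712_at) had a mean log2 value of 10.35 and deviated by 11.4, -9.5, 17.3 and 4.2 millionths in collagen replicates 1 to 4, against 7.0, -5.2, 3.0 and -28.2 millionths in control replicates 1 to 4. Collagen replicates 1 and 3 lay above all control arrays, and control replicate 4, 1 of the 2 arrays low in muscle markers, lay below the rest. The difference was 0.85 SD with an interval from -0.83 to 2.53 SD (limma adjusted p = 0.999). It was 0.44 SD without control replicate 4, 0.23 SD without both arrays low in muscle markers and -0.08 SD after median centring.

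The enzymes that break proline down, encoded by *Prodh* and *Aldh4a1*, both had higher means on the collagen diet, and in both control replicate 1 was the lowest array. *Prodh* (1417629_at), proline dehydrogenase, deviated by 6.5, -1.9, 1.5 and 6.0 millionths in collagen replicates 1 to 4, against -19.3, -1.3, 0.9 and 7.6 millionths in control replicates 1 to 4. All 4 collagen arrays lay within the range of the control arrays. The difference was 0.70 SD (interval from -0.95 to 2.36 SD, limma adjusted p = 0.999), it was 0.15 SD without control replicate 1, and it turned to -0.12 SD with quantile normalization and -0.11 SD with median centring.

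*Aldh4a1* (1452375_at), pyrroline-5-carboxylate dehydrogenase, had the largest difference of the 7 genes tested. It deviated by 31.6, 18.1, 42.7 and -24.8 millionths in collagen replicates 1 to 4, against -62.0, -4.3, -3.7 and 2.4 millionths in control replicates 1 to 4. Collagen replicates 1 to 3 lay above every control array, and collagen replicate 4 lay above only control replicate 1. The difference was 1.13 SD with an interval from -0.49 to 2.75 SD (limma adjusted p = 0.999), and 20.4% of all genes tested differed by more than 1 SD either way. It was 1.93 SD without collagen replicate 4 (limma adjusted p = 0.794), 0.21 SD with quantile normalization and 0.06 SD with median centring.

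*Aldh18a1*, which encodes pyrroline-5-carboxylate synthase at the start of proline synthesis, was measured by 5 probe sets that did not move together. The representative one (1437325_x_at) deviated by -8.7, -23.8, 29.3 and 3.9 millionths in collagen replicates 1 to 4, against 67.4, -75.6, 0.4 and 7.2 millionths in control replicates 1 to 4. Both the highest and the lowest array were on the control diet, and the difference was 0.01 SD with an interval from -1.61 to 1.62 SD (limma adjusted p = 0.999). Leaving out a single control array moved it either way, to 0.67 SD without control replicate 1 and -0.85 SD without control replicate 2, and it was -0.20 SD without collagen replicate 3, -0.02 SD without collagen replicate 4 and -0.14 SD after median centring.

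Of the other *Aldh18a1* probe sets, 1435855_x_at deviated by -30.0, -6.8, 7.9 and 3.2 millionths on the collagen diet, against 11.5, -8.5, 12.4 and 10.2 millionths on the control diet. Collagen replicate 1 was its lowest array, and it differed by -0.93 SD. The probe set 1415836_at deviated by -11.1, 8.1, 15.6 and 1.7 millionths on the collagen diet, against -12.7, -12.0, -9.0 and 19.6 millionths on the control diet. Control replicates 1 to 3 lay below all collagen arrays but replicate 1, control replicate 4 was the highest of all, and the difference was 0.52 SD. The probe sets 1437333_x_at and 1437620_x_at differed by 0.14 and -0.01 SD, the last of them below the filter. Over the 5 the differences ran from -0.93 to 0.52 SD, with 3 higher and 2 lower, and those tested had an adjusted p of 1.00 in limma.

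**Figure D3:**
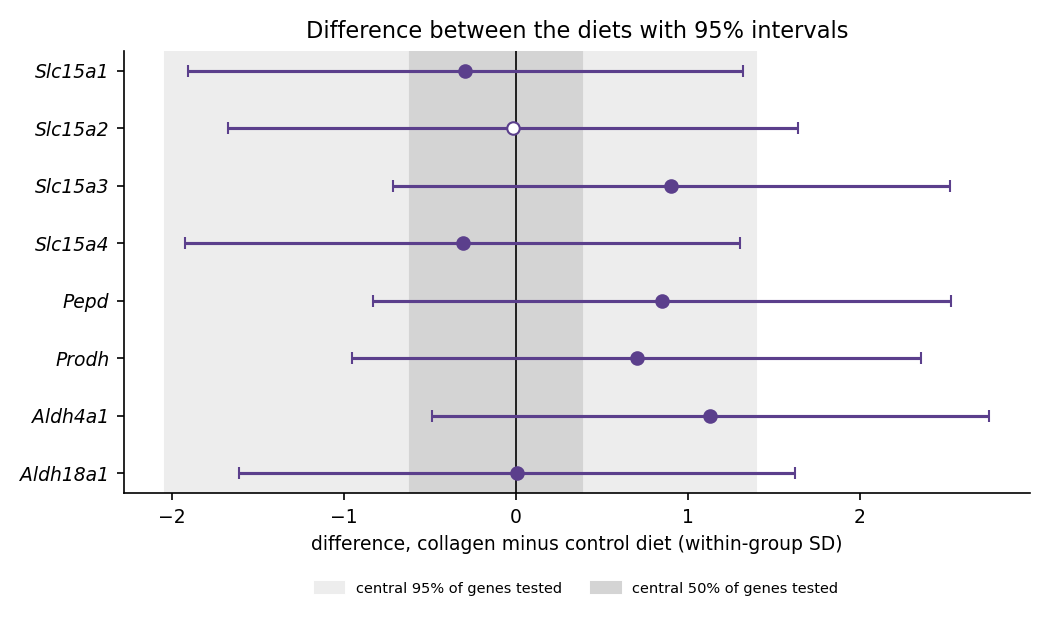
Difference between the diets, collagen minus control, in within-group SD (horizontal axis) with 95% intervals for the 8 measured genes. Shading shows where the central 95% and 50% of all genes tested lay. *Slc15a2*, with an open symbol, comes from the fit without the filter. Every interval includes 0, and the largest difference is that of *Aldh4a1* at 1.13 SD.

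**Figure D4:**
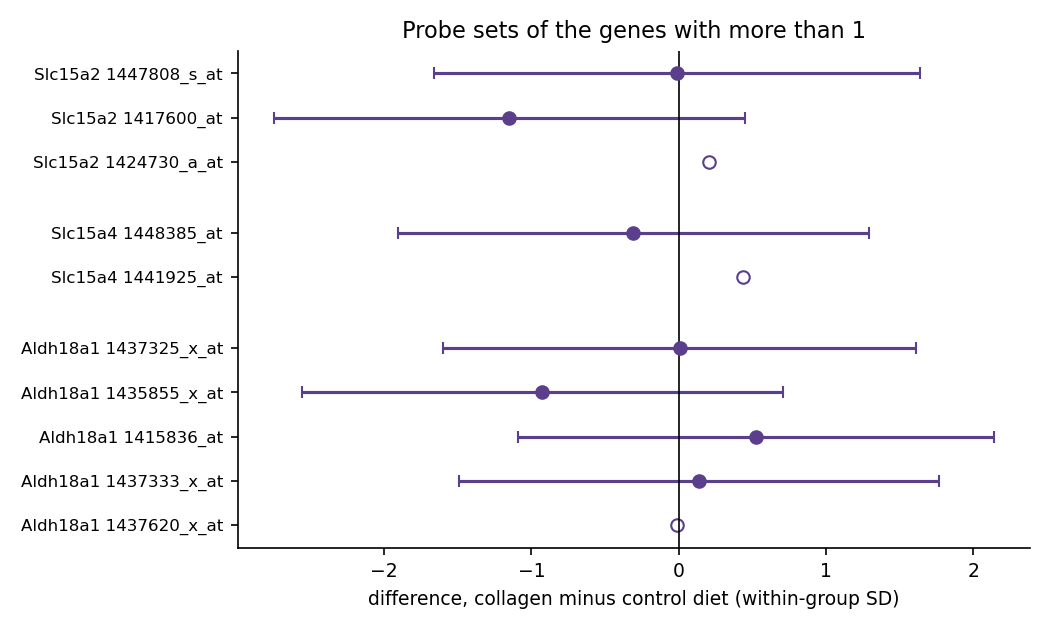
Difference between the diets, collagen minus control, in within-group SD (horizontal axis) for each probe set of *Slc15a2*, *Slc15a4* and *Aldh18a1*, the genes with more than 1. Filled points have 95% intervals from the fit of 31526 probe sets, which left out the lowest 30% of probe sets by mean. Open points were below that cut and not tested. The representative probe set of *Slc15a2* passed this cut, though the gene lay below the filter for genes. The probe sets of each gene lie on both sides of 0, from -1.15 to 0.21 SD for *Slc15a2* and from -0.93 to 0.52 SD for *Aldh18a1*.

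The patterns over the arrays most like those of the 7 genes tested were sought among 12233 named genes, by Pearson's correlation over the 8 arrays, and are given as a description only. For *Slc15a1* they were those of *Sfr1* (0.99) and *Gpx1* (0.97), a glutathione peroxidase. For *Slc15a3* they were *Cd300lb* (0.96), a receptor of myeloid cells, and *Capza2* (0.95), an actin-capping subunit, and for *Slc15a4* they were *Imp4* (0.96) and *Dguok* (0.95). *Suox* (0.92), sulfite oxidase, and *Pik3r1* (0.91) came closest to *Pepd*, and *Ddx6* (0.95) and *Cd2bp2* (0.95) to *Prodh*. *Inafm1* (0.95) and *Dffb* (0.93) came closest to *Aldh18a1*, and *Mapkbp1* (0.97) and *Lama5* (0.96), a laminin chain, to *Aldh4a1*. With 8 points and so many genes searched, values of this size are to be read as a ranking. None of these 14 genes passed the test between the diets.

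Enzymes that link proline to glutamate, ornithine and arginine were spread on both sides of 0. Of 15 in the list, all with a probe set, 11 were tested. On the collagen diet 7 were higher and 4 lower, against 45.5% and 54.5% of all genes tested, at a median of 0.19 SD against -0.08 SD. The median turned to -0.13 SD without collagen replicate 2 or control replicate 2, to -0.12 SD without control replicate 4 and to -0.10 SD after median centring. At an unadjusted p below 0.05 in limma stood 1 higher and 0 lower genes, against 1.21% higher and 4.15% lower of all genes, and 0 passed after adjustment over all genes. The 1 was *Oat*, ornithine aminotransferase, which connects ornithine with pyrroline-5-carboxylate. Its probe set (1416452_at) deviated by 48.0, 131.2, 302.4 and 178.2 millionths in collagen replicates 1 to 4, against -319.1, -127.2, 154.2 and -367.7 millionths in control replicates 1 to 4. Only control replicate 3 reached into the range of the collagen arrays.

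The *Oat* difference was 1.80 SD with an interval from 0.19 to 3.41 SD (limma adjusted p = 0.902), and it was 1.11 SD with quantile normalization and 1.65 SD with median centring. With 1 array left out at a time it ran from 1.51 to 3.79 SD, the latter without control replicate 3. It had an unadjusted p below 0.05 in limma in 2 of these 8 fits. *Ass1* and *Asl*, which act in succession to make arginine, differed by -1.31 and -1.09 SD (limma adjusted p = 0.999 for each). With 1 array left out *Asl* ran from -3.87 SD, without collagen replicate 1, to -0.79 SD. *Ass1* ran from -2.06 SD, without control replicate 3, to -1.02 SD, and it turned to 0.39 SD after quantile normalization. *Pycr3*, a relative of *Pycr1* that the annotation calls *Pycrl* (1416400_at), differed by -0.56 SD (limma adjusted p = 0.999).

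Peptidases that act on proline-containing or other short peptides lay on both sides of 0. Of 15, all with a probe set, 14 were tested, 6 higher and 8 lower, at a median of -0.13 SD. Over all genes tested 45.5% were higher and 54.5% lower. At an unadjusted p below 0.05 in limma stood 0 of the 14, against 5.36% of all genes. *Tpp1* (1448313_at), a lysosomal tripeptidyl peptidase, differed by 1.28 SD, turned to -0.31 SD with quantile normalization and -0.02 SD with median centring, and had a further probe set at -0.63 SD. *Xpnpep3* (1437926_at) and *Xpnpep1* (1422443_at), aminopeptidases that remove the residue before a proline, differed by -0.78 and -0.57 SD. Without control replicate 1 they were at -2.09 and -1.25 SD. Without control replicate 4 *Xpnpep3* was at -0.45 SD, and without collagen replicate 1 *Xpnpep1* was at -0.26 SD. *Fap* and *Dpp4*, related proteases that cut after proline and of which *Fap* marks activated fibroblasts, differed by 0.22 and -0.49 SD. The adjusted p of each was 0.999 in limma.

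Carriers of free proline and other amino acids held 2 genes whose groups did not overlap, 1 in each direction. Of 18 in the list, 13 were tested, 7 higher and 6 lower, at a median of 0.06 SD. Over all genes tested 45.5% were higher and 54.5% lower. The 2 without overlap compare with 3.31% of all genes tested. *Slc6a19* (1455442_at) encodes a carrier of neutral amino acids known from intestine and kidney. It deviated by -39.5, -38.9, -90.6 and -57.7 millionths in collagen replicates 1 to 4, against 93.8, 99.2, 44.4 and -10.6 millionths in control replicates 1 to 4. All 4 collagen arrays lay below all 4 control arrays. The difference was -2.83 SD with an interval from -4.45 to -1.22 SD (limma adjusted p = 0.643). With 1 array left out it ran from -5.07 SD, without control replicate 4, to -2.54 SD.

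A further probe set of *Slc6a19*, 1428595_at, differed by -1.75 SD with overlapping groups (limma adjusted p = 0.870 over all probe sets). After quantile normalization and median centring *Slc6a19* stood at -1.43 and -0.94 SD. *Slc36a1* (1428793_at) encodes a carrier that moves proline and glycine together with protons. It deviated by 25.5, 3.2, 14 and 14.4 millionths in collagen replicates 1 to 4, against -18.9, -38.4, -1.8 and 1.9 millionths in control replicates 1 to 4. All 4 collagen arrays lay above all 4 control arrays, the nearest by a small margin.

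The *Slc36a1* difference was 1.97 SD with an interval from 0.33 to 3.60 SD (limma adjusted p = 0.872). It was 0.17 SD with quantile normalization and 0.03 SD with median centring. The array medians differ by up to 369 millionths of a log2 unit, while the within-group SD of *Slc36a1* is 1.45e-05 log2 units. Centring therefore cannot show whether its difference holds. *Slc6a20a* (1427221_at), a carrier of proline and related imino acids, differed by 1.31 SD (limma adjusted p = 0.999). It stood at 0.05 SD with quantile normalization and 0.30 SD with median centring. With 1 array left out it ran from 1.02 to 2.46 SD, the latter without control replicate 1. The carriers of glutamine and neutral amino acids *Slc38a2*, *Slc1a5* and *Slc7a5* differed by -0.24, 0.13 and -0.72 SD (limma adjusted p = 0.999 for each).

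**Figure D5:**
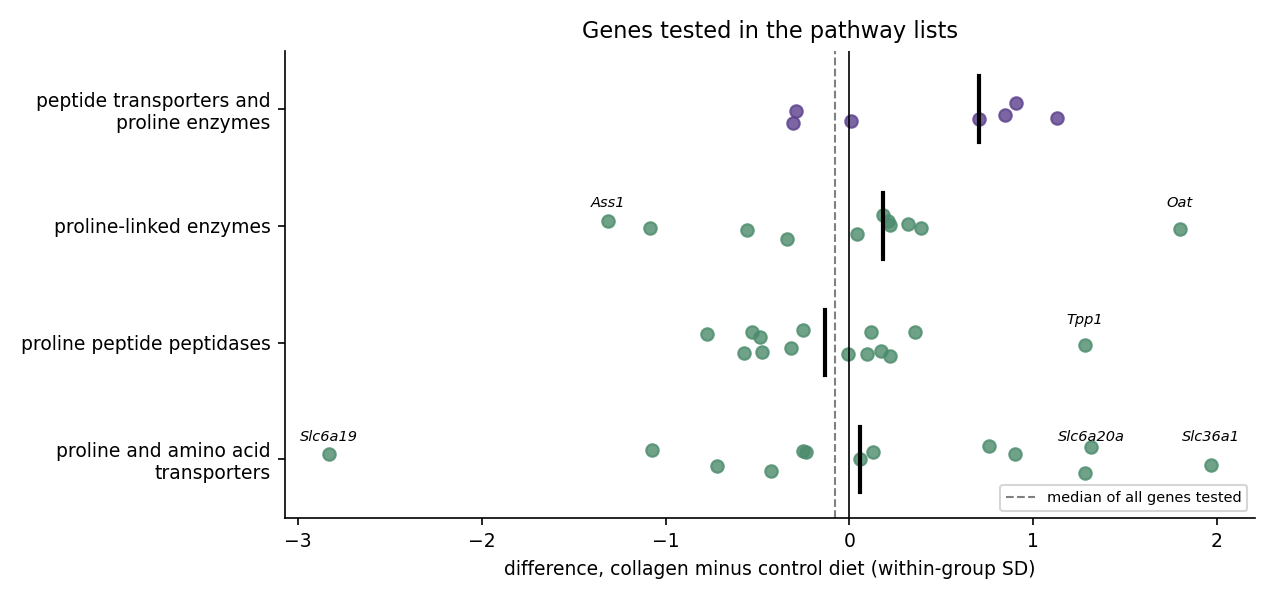
Difference between the diets, collagen minus control, in within-group SD (horizontal axis) of each gene tested in 4 groups of genes (rows). Points are genes, black bars the medians of each row, and the dashed line the median of all genes tested, -0.08 SD. The rows lie on both sides of 0, and *Slc6a19* at -2.83 SD and *Slc36a1* at 1.97 SD lie farthest out.

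Of the markers of other cell types, those of the hair follicle had the median farthest from 0 among the 8 lists. In that list 6 of 7 genes tested were higher and 1 lower, against 45.5% higher and 54.5% lower of all genes tested. Of the 7, 4 were higher and 1 lower at an unadjusted p below 0.05 in limma, against 1.21% higher and 4.15% lower of all genes. Groups did not overlap in 4, against 3.31% of all genes. The list was chosen with earlier results of these data known, so these counts cannot serve as a test. The list's median was 1.95 SD, and its mean deviation lay between -0.01 and 1.45 SD on the collagen diet and between -1.36 and 0.04 SD on the control diet. Its summed log2 levels ran from 58.61 to 58.62 on the collagen diet and from 58.60 to 58.61 on the control diet. Its part in the values of the genes above was not tested. Medians were 0.12 SD for 8 keratinocyte markers, 0.36 SD for 7 fibroblast markers, 0.26 SD for 14 muscle markers, -0.38 SD for 5 adipocyte markers, -0.38 SD for 3 sebaceous gland markers and -0.97 SD for the 2 B cell and plasmacytoid cell markers tested. No marker of any list passed over all genes.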

How the data were processed

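The authors deposited 1 log2 value per probe set and array. The log scale was judged from the range. How values were summarized or normalized is not known; per the submitters' processing notes, R 2.7.2 was used. Titles gave the diets and replicate numbers. The labels call the arrays biological replicates. No batch was named, and no 2 arrays shared more than 0.0155% of values.

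Of 45101 probe sets, 64 were controls. In the array's annotation, possibly out of date, 34945 of the rest name 1 symbol, 932 several and 9160 none, and genes were taken from the first kind only. The diets were compared two-sided with lmFit and trended eBayes of limma 3.58.1, run in R 4.3.3 (6 residual and 0.61 prior degrees of freedom), with Benjamini-Hochberg adjustment over 12735 genes and a threshold of 0.05. The fit was tested on simulated data. The number of arrays limits the precision, and each limma p sets the difference between the diets against the spread among arrays of the same diet.

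The genes and lists were chosen with earlier results of these data known. Named are all 9 genes, the 3 of each pathway list with the smallest p and the 2 genes most like each gene tested. *Pycr3*, *Fap*, *Dpp4*, *Slc38a2*, *Slc1a5*, *Slc7a5*, *Lyz2* and *Cd163* were named after their values were seen. Alternatives were other filters and scalings, the mean of all probe sets, no trend, robust or no moderation, array weights, a block for the replicate number, and leaving out arrays.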

Additional observations from a re-analysis of the deposited data

Results flagged for a closer look

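In *Aldh4a1*, control replicate 1 lay far from the other 3 control arrays: it deviated by -62.0 millionths of a log2 unit while these lay between -4.3 and 2.4, and the gap took 0.895 of the range of the group, above Dixon's 95% critical value for 4 samples. It was the 1 such gap in 34 groups searched, and chance gives one in about 5% of groups. The same array was the lowest in *Prodh*, where the gap stayed under that value. Without it the *Aldh4a1* difference was 0.81 SD.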

How the results depend on the processing

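Under 19 other settings, 18 for *Prodh*, which the 50% filter left out, no gene of the 7 tested passed, and the adjusted p in limma ran from 0.794 to 1.00. *Aldh4a1* kept its direction in all 19. With 1 array left out at a time the differences ranged from 0.81 to 1.93 SD for *Aldh4a1*, 0.56 to 1.55 for *Slc15a3*, 0.44 to 1.31 for *Pepd*, 0.15 to 1.25 for *Prodh*, -1.16 to 0.31 for *Slc15a1*, -0.86 to 0.22 for *Slc15a4* and -0.85 to 0.67 for *Aldh18a1*.

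Quantile normalization turned *Slc15a3* (-0.078 SD), *Prodh* (-0.12), *Ass1* (0.39) and *Tpp1* (-0.31), and median centring turned *Pepd* (-0.076), *Prodh* (-0.11), *Aldh18a1* (-0.14) and *Tpp1* (-0.024). *Aldh18a1* also turned with the mean of all its probe sets (-0.070) and with array weights (-0.17), and without the 2 arrays low in muscle markers *Slc15a4* (0.11) and *Xpnpep1* (0.076) turned. Of all genes tested 65.7% were lower after quantile normalization and 86.5% after median centring. The medians that were centred differ by up to 369 millionths of a log2 unit, more than the within-group SD of each of the 4 genes that turned there. That range also exceeds the SD of *Aldh4a1* (2.99e-05), *Slc36a1* (1.45e-05) and *Slc6a19* (4.01e-05 log2 units), whose differences shrank there. Centring therefore cannot show whether the difference of such a gene holds.

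The count of genes past the threshold was 1 with the lowest 50% left out, 0 to 1 with 1 array left out, and 0 otherwise. Over all genes 48.1% were higher without a filter, 34.3% after quantile normalization and 13.5% after median centring. Beside these, 11 of 18 amino acid carriers were higher without a filter, 4 of 13 after quantile normalization and 3 of 13 after median centring, where 2 of 14 peptidases and 4 of 11 proline-linked enzymes were higher. Of the proline-linked enzymes 3 to 7 were higher with 1 array left out. Ties that differ from 0 only by rounding can enter the counts after quantile normalization.

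To look for pairing, each gene's mean on its diet was subtracted from its values, and the rest was divided by the within-group SD. In these residuals same-numbered arrays of the 2 diets correlated at 0.00, -0.02, 0.18 and -0.07. The largest residual correlations of collagen replicates 1 to 4 with a control array of another number were 0.15, 0.17, 0.16 and 0.16. Only replicate 3 was closer to its own number, and the labels do not say that numbers pair mice. So few values cannot settle whether they do. With the replicate block the count of genes was 0 and *Aldh4a1* stood at 0.95 SD. The values carry no measure of background, so a gene below the filter is not shown to be unexpressed.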
